A study of Rattus norvegicus with 9 samples.

Results

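GAPDH and ENO3 are 2 of the 22512 entries of the deposited expression table, and both were taken by symbol in all 9 libraries. GAPDH encodes glyceraldehyde-3-phosphate dehydrogenase, the glycolytic enzyme that oxidizes glyceraldehyde 3-phosphate. It is widely used as a reference gene, and its primers stand beside those of the target genes in the primer list of this study. ENO3 encodes β-enolase, the enolase isoform of adult skeletal and cardiac muscle, which makes phosphoenolpyruvate a few steps later in the same pathway. The pair was chosen by the FPKM of both genes and their ratio in these same libraries, so these values are given as a description, without a test.

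The cells were labelled as cardiac fibroblasts (CFs) of Rattus norvegicus, isolated by differential adherence from the hearts of neonatal rats aged 1 to 3 days and used at passage 2 or 3. The blank group received no treatment. The AngII group received angiotensin II, a peptide hormone used to activate CFs, at 0.1 µM for 72 h, and the vericiguat + AngII treatment group received vericiguat, a stimulator of soluble guanylate cyclase, at 1.0 µM for 24 h and then AngII for 72 h, as the labels state it. For its migration assay the study describes groups of the same names with 24 h of AngII, followed in the treatment group by 24 h of vericiguat, so the sources differ in order and duration, and the files do not settle which applied to the sequenced CFs. Each group had 3 libraries, whose values are given below in the order of their replicate numbers, and nothing in the labels says whether they came from separate isolations, so p-values measure the spread between these libraries, which may be technical.

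Glycolysis turns glucose into pyruvate in the cytosol and yields ATP without oxygen. Many of its steps are carried out by isoforms that differ between tissues. ENO1 is the broadly expressed enolase and ENO3 takes over during muscle development, while proliferating fibroblasts are usually described with ENO1, LDHA and PKM rather than with the muscle isoforms.

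Several properties of the libraries bear on these values. The submitters' processing notes name OryCun2.0, a rabbit assembly, as the genome build, although the labels give rat, and the effect of this on the values was not tested. Of the entries, 20346 carry a LOC number and none of those numbers is in the RefSeq genes of the rat assembly GRCr8, so genes without a symbol could not be counted in the lists used here. The 13 entries named KEF51_p01 to KEF51_p13 held most of the summed FPKM, and everything outside them made up 2.09% to 2.42% of it in the blank libraries, 2.51% to 3.35% with AngII and 47.7% to 54.7% after treatment. Fragment numbers are unknown, but the steps between low FPKM values put the depth of the libraries between 0.688 and 1.15 times that of the first blank library, an estimate that could be off by a factor of 2 for the treated libraries, which share only 166 to 190 low genes with it. Blank library 3 lay between the other blank libraries for 84.3% of the 4620 genes above 0 in all of them, whereas this share was 5.76% to 41.9% for every other library within its own group. Calls that involve the blank group are therefore also given without it.

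GAPDH was listed at 65.4, 16.7 and 37.5 FPKM in blank, at 62.7, 88.5 and 116 FPKM with AngII and at 3199.6, 3342 and 2604 FPKM after treatment. The blank and AngII libraries overlapped, and every treated library was far above both. Of the 10908 genes that reached FPKM 1 in 3 or more libraries, 99.7% were higher in every treated library than in every AngII library and 99.6% higher than in every blank library. The 3 treated libraries alone can meet this filter, so such shares are partly set by it. They had 11280 to 11565 genes at FPKM 1 or more, against 260 to 1542 in blank and 1155 to 1517 with AngII. Group means were 39.9 ± 24.4 FPKM (SD, n = 3), 89.0 ± 26.6 FPKM (SD, n = 3) and 3049 ± 391 FPKM (SD, n = 3). The mean of the treated group was 34.2 times that of the AngII group and 76.5 times that of the blank group.

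ENO3 was listed at 2.52, 0.925 and 2.43 FPKM in blank, at 22.4, 45.4 and 28.01 FPKM with AngII and at 608.5, 681 and 470.3 FPKM after treatment. The groups did not overlap, with the blank libraries lowest and the treated libraries highest. Group means were 1.96 ± 0.896 FPKM (SD, n = 3), 31.9 ± 12.0 FPKM (SD, n = 3) and 587 ± 107 FPKM (SD, n = 3). The AngII mean was 16.3 times the blank mean, and the treated mean was 18.4 times the AngII mean. Of the 10908 genes, 19.7% had groups in this order without overlap, so the order alone is shared with many genes. In RNA from whole cultures, fewer cells that express a gene and less of its RNA per cell cannot be told apart.

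**Figure D1:**
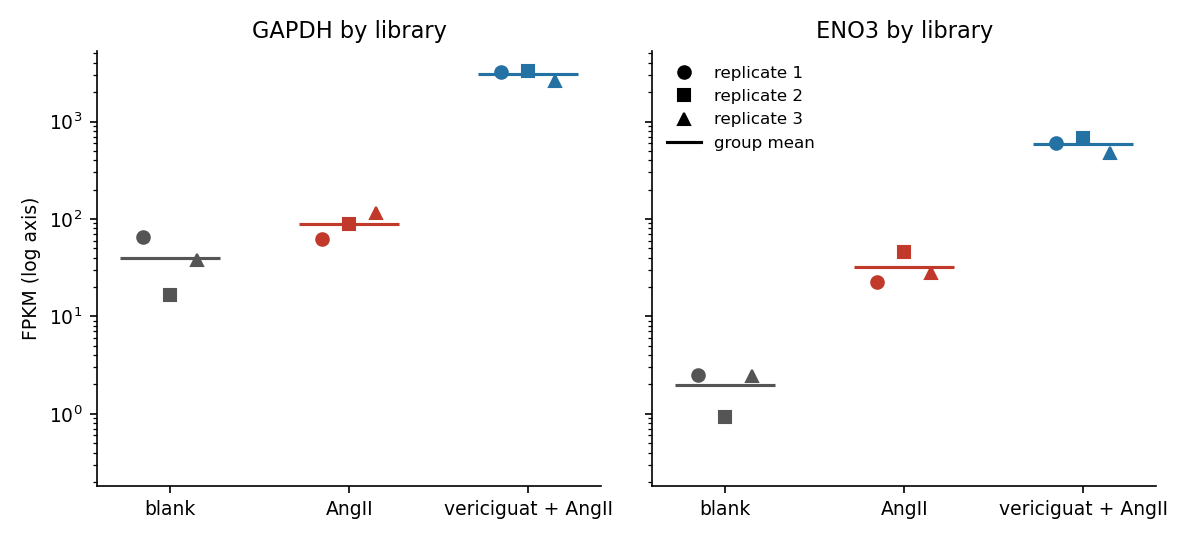
FPKM of GAPDH (left) and ENO3 (right) in each library on a shared log axis, with 1 point per library and a line at the group mean. The blank and AngII libraries overlap for GAPDH, at 16.7 to 65.4 and 62.7 to 116 FPKM, and are separate for ENO3, at 0.925 to 2.52 and 22.4 to 45.4 FPKM.

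The ratio of the genes within a library does not depend on how that library was scaled. ENO3 amounted to 3.86%, 5.54% and 6.48% of GAPDH in the blank libraries, to 35.7%, 51.3% and 24.2% with AngII and to 19.0%, 20.4% and 18.1% after treatment. By this measure the AngII libraries were highest and the treated libraries lay between the other groups, with no overlap of any 2 groups. Although ENO3 FPKM was highest after vericiguat + AngII treatment, ENO3 relative to GAPDH was therefore highest with AngII alone. Between the group means of log2 ratios, AngII exceeded blank by 2.77 (pooled SD between libraries 0.470), and the treated group was at -0.89 against AngII (pooled SD 0.389) and at 1.89 against blank (pooled SD 0.279). Without blank library 3 the differences from blank were 2.94 for AngII and 2.05 for the treated group. Of the 10908 genes, 1.44% followed the same order of ratios to GAPDH without overlap. AngII was above blank without overlap for 11.1%, AngII above treated for 7.46% and treated above blank for 38.4%.

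A second description that no scaling can change is the rank of each gene within its library among the 22499 entries outside KEF51, counted from the highest FPKM. GAPDH held ranks 19, 8 and 18 in blank, 16, 9 and 11 with AngII and 7, 8 and 9 after treatment. It was thus among the 20 highest entries everywhere, including the libraries in which its FPKM was lowest. ENO3 stood at ranks 593, 262 and 337 in blank, 90, 22 and 71 with AngII and 92, 81 and 100 after treatment. The ranks of ENO3 with AngII overlapped those after treatment, and both groups were above every blank library. GAPDH stayed within ranks 7 to 19, while ENO3 lay between ranks 262 and 593 in blank and between ranks 22 and 100 in the other groups.

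**Figure D2:**
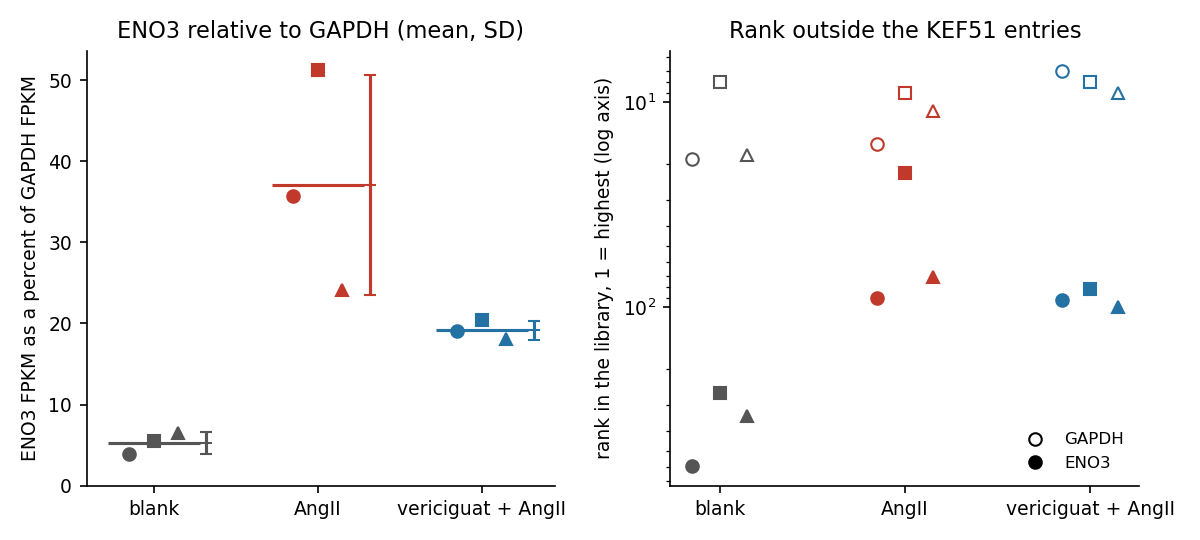
Left, ENO3 as a percent of GAPDH in each library, with the group mean as a line and its SD as a bar; right, the rank of GAPDH (open symbols) and ENO3 (filled symbols) by FPKM outside the KEF51 entries, on an inverted log axis. The ratio peaks in the AngII group at 24.2% to 51.3%, and GAPDH ranks stay between 7 and 19 in all libraries.

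Since the share of FPKM outside KEF51 differed so much between groups, both genes were also scaled so that the FPKM outside these entries summed to 1000000. GAPDH then reached 2111, 460.4 and 994 in blank, 1371, 1536 and 2148 with AngII and 7506, 7793 and 6004 after treatment. ENO3 reached 81.4, 25.5 and 64.4, then 489.8, 787 and 519, and then 1428, 1589 and 1084 in the same groups. On this scale blank and AngII still overlapped for GAPDH, all 3 groups stayed apart for ENO3, and the distance of the treated group from AngII shrank for both genes. Without overlap, AngII was above blank for 13.5% of the genes on this scale, treated above AngII for 90.4% and treated above blank for 84.2%. Blank library 2 was the lowest of its group for both genes, and it was also the one with the fewest genes at FPKM 1 or more (260, against 865 and 1542).

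The other enzymes of the pathway were looked at as a list of 29 genes from hexokinase to lactate dehydrogenase, of which 10 are listed by symbol, GAPDH and ENO3 among them. ENO1, ENO2 and ENO4 are not listed by symbol, so whether the enolase isoforms shifted against each other was not analysed here. The remaining 8 genes all passed the minimum of FPKM 1 in at least 3 libraries. The test was limma, fitted once to log2(FPKM + 1) of the 3 groups together, and calls required a change of 1 or more in either direction on the log2 scale together with p below 0.05 after Benjamini-Hochberg adjustment over the 10908 genes.

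None of the 8 was called between AngII and blank by limma, where 1.55% of all tested genes were called. An unadjusted p below 0.05 was reached by 3 of the 8 and by 1567 of the 10908 tested genes. Without blank library 3 none of all tested genes was called by limma (993 at an unadjusted p below 0.05, 1 of the 8 among them). The 169 genes behind the share of 1.55% also fell to 2 without treated library 1 or 2 and to 18 without treated library 3. Treated libraries enter this comparison only through the shared fit. Leaving out any 1 library gave 0 to 309 called genes, so the share is unstable and does not rest on blank library 3 alone. The median log2 fold change of the 8 was 0.30, beside 0.06 for all tested genes. LDHB, the lactate dehydrogenase subunit that prevails in heart, came closest. It was listed at 4.42, 2.82 and 3.45 FPKM in blank and at 14.8, 16.8 and 17.8 FPKM with AngII, or 1.95 on the log2 scale (standard error 0.534, limma adjusted p = 0.106). Its groups did not overlap, which was also the case for ALDOA, GPI and BPGM, and AngII was above blank without overlap for 19.8% of all tested genes. ALDOA, the aldolase of muscle and most other tissues, was at 1.35 on the same scale (standard error 0.599, limma adjusted p = 0.336). PKM, the pyruvate kinase of fibroblasts and muscle, was at -0.32 (standard error 0.637, limma adjusted p = 0.93), with 11.6, 0.998 and 5.24 FPKM in blank and 2.52, 6.03 and 2.26 FPKM with AngII. LDHA and PFKP were below FPKM 1 in every blank and AngII library. ENO3 had a log2 fold change of 3.47 in the same fit (standard error 0.565), larger than that of any of the 8.

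In the treated group all 8 genes were called higher than in the AngII group and higher than in the blank group. So were 99.5% and 99.3% of all tested genes, so these calls say nothing particular about glycolysis. With no filter on low values the shares called higher were 61.5% and 61.6% of 18281 genes. The median log2 fold changes of the 8 were 4.29 and 4.64, beside 2.76 and 2.83 for all tested genes. ALDOA was listed at 1106, 966 and 772 FPKM after treatment, and its log2 fold change against AngII was 6.48 (standard error 0.599, limma adjusted p = 5.15e-07), above the 5.12 of GAPDH (standard error 0.74) and the 4.20 of ENO3 (standard error 0.565). GPI, which interconverts glucose and fructose 6-phosphate, followed with 5.56, PKM with 5.32 and LDHB with 4.90. PFKP, the platelet-type phosphofructokinase, rose by 2.00 (limma adjusted p = 1.28e-09) and reached no more than 3.65 FPKM. After rescaling each library to the same sum outside KEF51, where 62.3% of all tested genes were called higher than in AngII, 7 of the 8 were called higher than in AngII and 5 of the 8 higher than in blank, where 63.9% of all tested genes were.

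**Figure D3:**
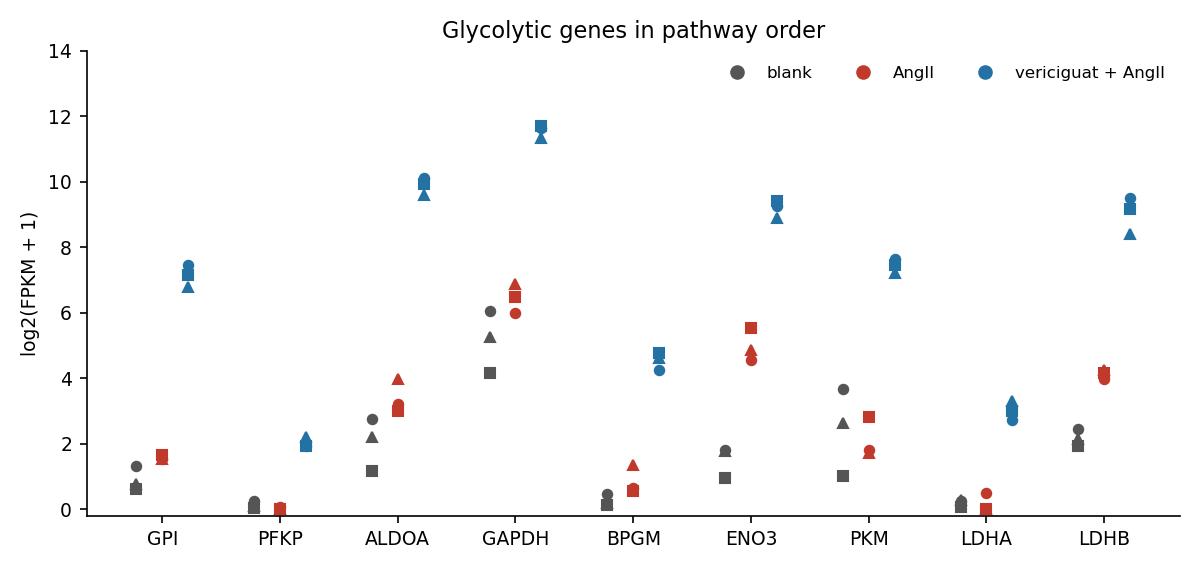
log2(FPKM + 1) of 9 glycolytic genes that are listed by symbol, in pathway order, with 1 point per library coloured by group and the replicate shown by its shape. All 9 genes are highest in the treated libraries, and AngII lies above blank without overlap for GPI, ALDOA, BPGM, ENO3 and LDHB, of which the 4 tested were not called.

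ENO3 was then set against each of the 5 other glycolytic genes that are above 0 in every library. Relative to ALDOA it stood at 0.435, 0.746 and 0.666 in blank, at 2.71, 6.42 and 1.91 with AngII and at 0.55, 0.705 and 0.609 after treatment. The blank and treated libraries overlapped here, and the AngII libraries were above both, as they were for 8.74% (against blank) and 29.5% (against treated) of the 10908 genes. Relative to GPI, PKM and LDHB the AngII libraries were likewise above both other groups, with log2 differences of 2.81, 4.37 and 1.87 for AngII minus blank and of -1.89, -1.47 and -0.74 for treated minus AngII. The shares of the 10908 genes above blank in the same way were 11.3%, 27.7% and 6.44%, and those above treated were 21.9%, 13.6% and 4.12%. Relative to BPGM, the enzyme that makes 2,3-bisphosphoglycerate, AngII was above blank (as for 6.57% of the 10908 genes) but overlapped the treated libraries. Among these glycolytic denominators, GAPDH included, ENO3 was higher with AngII than in blank each time, whereas the place of the treated group relative to blank changed with the denominator, from a log2 difference of 0.04 against ALDOA to 2.90 against PKM.

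GAPDH itself was not constant relative to the other enzymes. The ratio of GAPDH to ALDOA was 11.3, 13.5 and 10.3 in blank, 7.57, 12.5 and 7.90 with AngII and 2.89, 3.46 and 3.37 after treatment. All treated libraries were below all others, as for 34.5% of the 10908 genes against blank and 29.5% against AngII. GAPDH to GPI was also lower in every treated library (18.1 to 23.9) than in the blank (32.2 to 54.1) and AngII libraries (33.2 to 60.5), shared by 21.8% and 21.9% of the genes. GAPDH to BPGM, PKM and LDHB overlapped in each of the 3 comparisons.

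**Figure D4:**
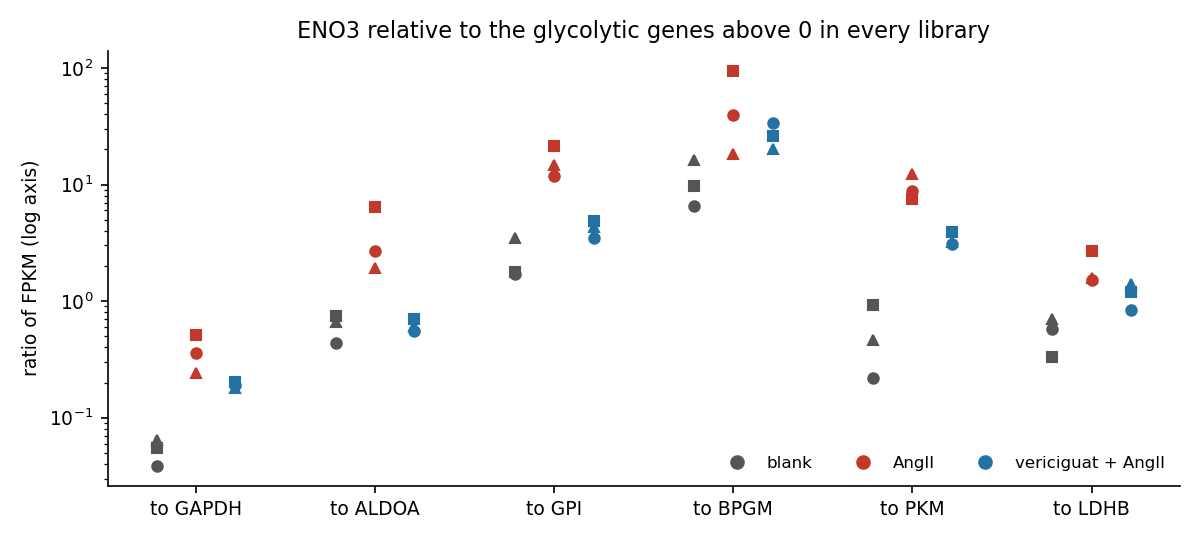
Ratio of ENO3 FPKM to the FPKM of GAPDH, ALDOA, GPI, BPGM, PKM and LDHB in each library on a log axis, coloured by group. The AngII libraries are above all blank libraries for each denominator, and above all treated libraries for each except BPGM.

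Genes that supply glycolysis or regulate it formed a second list of 29 genes, 7 of them listed by symbol and 5 tested. By limma none of the 5 was called between AngII and blank (4 at an unadjusted p below 0.05). Of the 10908 tested genes, 1.55% were called and 1567 were at an unadjusted p below 0.05. Each of the 5 passed as higher after treatment against both other groups, like 99.5% and 99.3% of all tested genes. SLC2A4, the insulin-responsive glucose transporter of muscle and fat, was listed at 0, 0.041 and 0.043 FPKM in blank, at 0.703, 4.34 and 1.32 FPKM with AngII and at 25.6, 23.1 and 22.9 FPKM after treatment. Its log2 fold change between AngII and blank was 1.43 (standard error 0.341, limma adjusted p = 0.0656). PYGM, the glycogen phosphorylase of muscle, was listed at 0.464, 0 and 0.281 FPKM, then at 1.16, 4.26 and 2.55 FPKM and then at 169, 129 and 118 FPKM, with a log2 fold change between AngII and blank of 1.48 (standard error 0.366, limma adjusted p = 0.0775). Like ENO3, both were highest among the AngII libraries in library 2. SLC2A1, the glucose transporter found in most cells, reached no more than 0.333 FPKM in any blank or AngII library and 4.32 to 5.80 FPKM after treatment. HIF1A, of the same list, went the other way between AngII and blank. It was listed at 1.98, 0.144 and 1.06 FPKM in blank and at 0.353, 0 and 0.274 FPKM with AngII. Its log2 fold change was -0.68 (standard error 0.296, limma adjusted p = 0.33).

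Because ENO3 is a muscle isoform, markers of other cell types were summed in the same libraries. These are sums of deposited FPKM. All entries outside KEF51 together summed to 30992 to 37728 FPKM in blank, 45747 to 57618 with AngII and 426296 to 433771 after treatment. Higher sums after treatment were thus shared with most genes and do not measure the amount of a cell type. Of 15 cardiomyocyte markers, 7 are listed by symbol (MYH6, MYH7, PLN, RYR2, ATP2A2, TTN and NPPA), and their summed FPKM was 6.95 to 9.68 in blank, 47.0 to 114 with AngII and 3958 to 6357 after treatment. The sum was highest within the AngII group in library 2, which also had the highest ENO3. Most of it came there from MYH6 (44.9 FPKM) and MYH7 (55.7 FPKM). RYR2, ATP2A2 and TTN were also highest in that library, whereas PLN was lowest there, with 32.6, 7.57 and 25.8 FPKM in the AngII libraries. NPPA, the atrial natriuretic peptide gene, was at 0 in all blank libraries and in 2 AngII libraries and reached 0.449 FPKM at most. Of 20 skeletal muscle markers, 8 are listed, and they summed to no more than 0.25 FPKM in any blank or AngII library and to 4.28 to 8.21 FPKM after treatment, with MYOG and MYH4 at 0 throughout. The 4 listed of 14 fibroblast markers (COL1A2, DCN, LUM and FN1) summed to 1.70 to 24.7 FPKM in blank, 7.09 to 25.7 in AngII and 368 to 527 in the treated group. The corresponding ranges were 0.054 to 0.398, 0.083 to 0.421 and 81.3 to 86.2 FPKM for the endothelial genes KDR and VWF (2 of 8 listed), and 0.92 to 25.2, 4.70 to 6.85 and 428 to 731 FPKM for MYH11, ACTA2 and DES (3 of 8 smooth muscle and pericyte markers). These 3 differed in direction between the blank and AngII means. MYH11 went from 6.59 to 0.271 FPKM and ACTA2 from 3.94 to 0.381 FPKM, but DES from 2.33 to 5.12 FPKM. The libraries of both groups overlapped for each of them. CD14, the only listed gene of 8 macrophage markers, reached 1.14 FPKM at most outside the treated group, where it was at 5.16 to 8.56 FPKM. The 3 listed of 9 red cell markers, HBA, HBB2 and HBG1, summed to 154 to 398 FPKM in blank, 204 to 310.2 in AngII and 8364 to 15127 in the treated group. The part of cardiomyocyte RNA in the ENO3 values was not tested. ENO3 relative to MYH7, the slow cardiac myosin heavy chain, was 0.635, 0.668 and 0.991 in blank, 2.39, 0.814 and 1.36 with AngII and 0.14, 0.187 and 0.17 after treatment, so the blank and AngII libraries overlapped. For this ratio the treated libraries were lowest, as for 41.8% of the 10908 genes against blank and 36.1% against AngII. Other cardiomyocyte denominators gave other orders. ENO3 relative to MYH6, the fast cardiac myosin heavy chain, was 12.5, 57.8 and 48.6 in blank and 8.36, 1.01 and 5.99 with AngII, lower in every AngII library (log2 difference -3.15). Relative to TTN, the gene of titin, AngII and blank overlapped (log2 difference 1.34). Outside the cardiomyocyte list they also overlapped relative to the elongation factor gene EEF1A1 (1.09, pooled SD 1.66). The log2 difference was larger relative to PPIA (3.30, pooled SD 1.01), ACTB (5.58, pooled SD 0.905) and DES (2.58, pooled SD 0.636).

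GAPDH is in the qRT-PCR primer list of the study, and β-actin, the product of ACTB, is among the proteins probed on its Western blots. Both genes are common references. Over the 9 libraries, log2(FPKM + 1) of GAPDH had an SD of 2.98 and spanned 7.56, and 98.1% of the tested genes had a smaller SD. After rescaling to the same sum outside KEF51 its SD was 1.40, and 88.4% of the tested genes were below that. Of 29 genes often used as references, 11 are listed by symbol, and GAPDH had the sixth smallest SD among them. RPL32, ATP5F1B and HPRT1 had the smallest, at 1.36, 1.85 and 1.98, but they were listed at 0 in 6, 4 and 2 libraries and averaged 5.57, 12.5 and 17.7 FPKM in the treated group, and the pseudocount of 1 compresses such low values. ACTB had an SD of 3.28. By limma, none of the 10 others was called between AngII and blank (4 at an unadjusted p below 0.05), beside 1.55% called and 1567 at that p among the 10908 tested genes. Each of the 10 passed as higher after treatment against both other groups, as nearly every gene did.

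GAPDH and ACTB did not keep a constant ratio. GAPDH was 1.52, 5.43 and 1.69 times ACTB in the blank libraries, 11.7, 12.5 and 32.6 times with AngII and 4.40, 5.06 and 3.34 times after treatment. Each AngII library was above all other libraries (as for 44.2% of the 10908 genes against blank and 41.5% against treated), while blank and treated libraries overlapped. ACTB was listed at 43.0, 3.07 and 22.3 FPKM in blank and at 5.35, 7.06 and 3.55 FPKM with AngII. The choice between these references therefore changes a comparison with the AngII group by 2.81 on the log2 scale against blank, and by 2.00 against the treated group.

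To see what GAPDH as a reference does to the whole table, each library was divided by its GAPDH FPKM, rescaled to the geometric mean of GAPDH, and fitted again with limma. Between AngII and blank, 305 genes were called higher and 545 lower (7.79% of the tested genes), in place of 157 and 12 with deposited FPKM. Between the treated group and AngII, 251 were called higher and 100 lower (3.22%), in place of 10858 and 11. Between the treated group and blank the calls were 511 and 517 (9.42%), in place of 10833 and 12. Over all tested genes the median change on the log2 scale fell from 2.76 to 0.12 for treated against AngII and from 2.83 to 0.13 for treated against blank. The filter stayed that of deposited FPKM, and the pseudocount of 1 was added after the division. Low genes of the treated libraries thus came near the pseudocount. RPL32, at 4.73 to 7.04 FPKM after treatment and 0 elsewhere, went from 2.70 to 0.47 against AngII and was not called. How much of the fall came from this was not tested. Division by ACTB, tried after the data were examined, gave 3249 higher and 48 lower between AngII and blank (30.2%), 39 and 2214 between treated and AngII (20.7%), and 355 and 96 between treated and blank (4.13%). Without blank library 3, GAPDH scaling called 383 (3.51%), 287 (2.63%) and 761 genes (6.98%) in the same order of comparisons, and limma on deposited FPKM called 0 (993 at an unadjusted p below 0.05), 10869 and 10842.

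The log2 fold change of ENO3 between AngII and blank was positive on every scale, at 3.47 with deposited FPKM, 3.36 with the same sum outside KEF51, 3.21 with median-ratio scaling, 2.66 with GAPDH and 5.26 with ACTB as the reference. Against blank the treated group was also higher on each of these scales, by 7.67, 4.56, 2.12, 1.79 and 2.42. Between the treated group and AngII the sign depended on the scale, with 4.20 and 1.20 for deposited FPKM and the same sum outside KEF51 but -1.10, -0.87 and -2.85 with median-ratio, GAPDH and ACTB scaling. GAPDH with median-ratio scaling was at 0.59, -0.23 and 0.36 in the comparisons of AngII with blank, treated with AngII and treated with blank, each with a standard error of 0.399.

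The genes measured by qRT-PCR show what the reference changes. Of 8 genes for the targets measured, ACTA2, COL1A2, FN1 and TGFB1 are listed by symbol. ACTA2, which encodes α-SMA, amounted to 11.9%, 1.26% and 10.2% of GAPDH in the blank libraries, to 1.64%, 0% and 0.0984% with AngII and to 5.23%, 4.17% and 8.13% after treatment. In deposited FPKM it stood at 7.79, 0.21 and 3.83 in blank and at 1.03, 0 and 0.114 with AngII, where it was near the floor. Relative to GAPDH it was called lower with AngII than in blank, by limma with GAPDH scaling (log2 fold change -2.87, standard error 0.76, limma adjusted p = 0.0365), and higher in the treated group than with AngII (2.87, standard error 0.76, limma adjusted p = 0.0327). Without blank library 3 the first was no longer called (limma adjusted p = 0.135) and the second was (limma adjusted p = 0.042). With ACTB as the reference neither was called (limma adjusted p = 0.185 and 0.0628). With median-ratio scaling both were, at -2.49 (limma adjusted p = 0.0391) and 2.83 (limma adjusted p = 0.0208). With the same sum outside KEF51 only the second was (limma adjusted p = 0.173 and 0.000533).

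TGFB1, the gene of TGF-β1, amounted to 1.95%, 1.24% and 2.70% of GAPDH in the blank libraries, to 0.147%, 1.17% and 0% with AngII and to 0.266%, 0.319% and 0.405% after treatment. In deposited FPKM it was near the floor outside the treated group, at 1.27, 0.207 and 1.01 in blank and at 0.092, 1.04 and 0 with AngII. GAPDH scaling raises such values before the pseudocount of 1 is added. With GAPDH scaling it was called lower in the AngII group than in blank (log2 fold change -1.58, standard error 0.426, limma adjusted p = 0.0383) and lower in the treated group than in blank (-1.55, standard error 0.426, limma adjusted p = 0.0207). The treated group and AngII were at 0.03 (limma adjusted p = 0.98). In deposited FPKM the treated group was at 2.62 against blank, so the sign of this comparison turned with the reference. Neither lower call held without blank library 3 (limma adjusted p = 0.14 and 0.0788) or with ACTB as the reference (limma adjusted p = 0.691 and 0.469). With median-ratio scaling the treated group was called lower than blank (-1.28, limma adjusted p = 0.034), and AngII was not (-1.33, limma adjusted p = 0.0506). With the same sum outside KEF51 neither was called (limma adjusted p = 0.235 for AngII and 0.821 for the treated group). COL1A2, a chain of collagen I, and FN1, fibronectin, were not called relative to GAPDH in any comparison, with log2 fold changes of 0.91, -1.33 and -0.42 for COL1A2 and -1.12, 0.21 and -0.91 for FN1.

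Of the glycolytic genes, ALDOA was the only one of the 8 called relative to GAPDH. It was higher in the treated group than with AngII (log2 fold change 1.45, standard error 0.382, limma adjusted p = 0.0317) and than in blank (1.79, standard error 0.382, limma adjusted p = 0.0064), and without blank library 3 these were at limma adjusted p = 0.0608 and 0.0263. SLC2A4 and PYGM were called higher with AngII than in blank relative to GAPDH (2.02, limma adjusted p = 0.0155, and 1.85, limma adjusted p = 0.0239), and neither was without blank library 3 (limma adjusted p = 0.0587 and 0.0504). ACTB relative to GAPDH was called lower with AngII than in blank (-2.70, standard error 0.578, limma adjusted p = 0.0156), and was not without that library (limma adjusted p = 0.0745). HIF1A, of the same list as SLC2A4 and PYGM, was called lower relative to GAPDH with AngII than in blank (-1.81, limma adjusted p = 0.0188). It was also called lower in the treated group than in blank (-1.37, limma adjusted p = 0.0283).

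**Figure D5:**
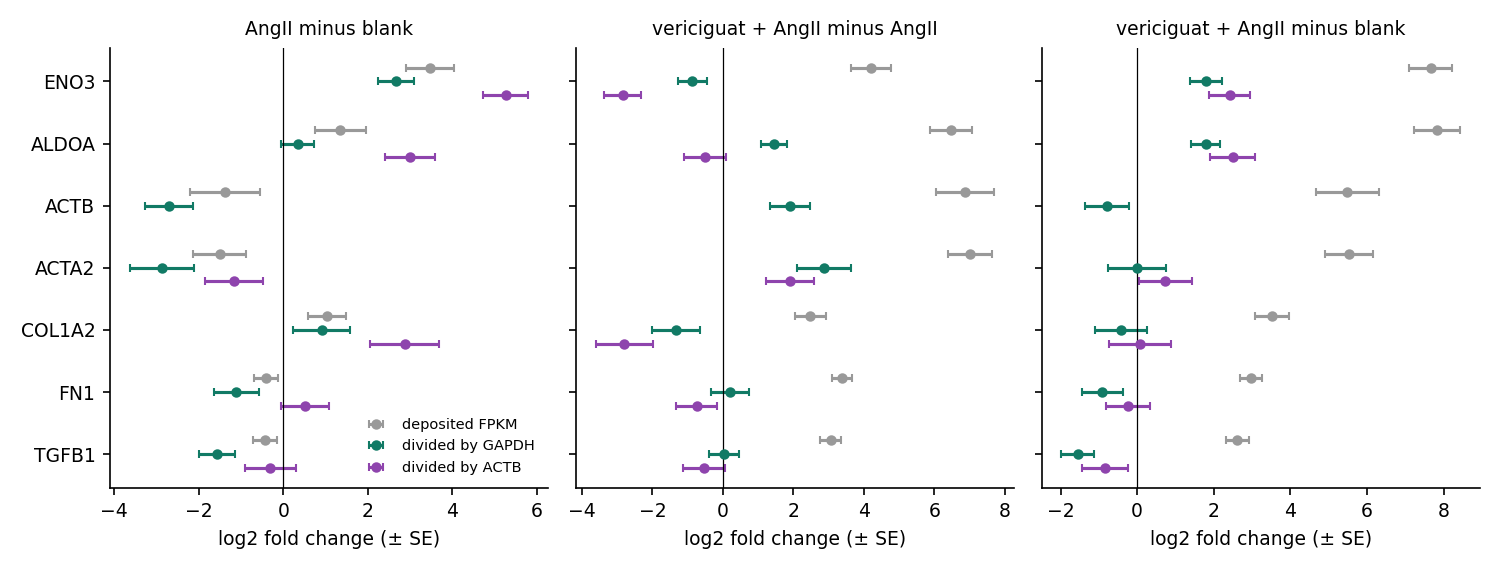
log2 fold change of ENO3, ALDOA, ACTB, ACTA2, COL1A2, FN1 and TGFB1 with its standard error in the 3 comparisons, with deposited FPKM (grey) and after division by GAPDH (green) or ACTB (purple). In the middle panel ENO3 lies at 4.20 with deposited FPKM and at -0.87 and -2.85 after division by GAPDH and ACTB.

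The genes whose profiles were most like those of the members were sought among the 419 genes with a symbol and a mean FPKM of at least 5, by the Pearson correlation of log2(FPKM + 1) over the 9 libraries. These libraries fall into 3 groups and share the difference in composition, so the typical gene already reached 0.974 with GAPDH and 0.911 with ENO3. Nearest to GAPDH were ATP5PD, a subunit of ATP synthase (0.998), SSR4, a subunit of the translocon-associated complex (0.997), CUNH9orf78 (0.997), ALDOA (0.997) and the tropomyosin gene TPM1 (0.996). Nearest to ENO3 were MICOS10, of the complex that shapes mitochondrial cristae (0.998), ATP5MC2 and ATP5PO of ATP synthase (0.991 each), CUNH19orf12 (0.99) and SLC25A4, the ADP/ATP carrier of heart and muscle (0.99). MICOS10 shared the high value of AngII library 2, with 5.49, 14.6 and 7.24 FPKM in that group. CUNH19orf12 was also highest there, but ATP5PO was highest in AngII library 3. In AngII library 2 ATP5MC2 (7.22, 7.11 and 7.53 FPKM) and SLC25A4 (27.8, 23.3 and 34.7 FPKM) were lowest. With group means removed, the correlation with ENO3 was 0.947 for MICOS10, 0.791 for CUNH19orf12, 0.532 for ATP5PO, 0.314 for ATP5MC2 and -0.033 for SLC25A4. GAPDH and ENO3 reached 0.955 with each other, which put GAPDH at place 53 for ENO3 and ENO3 at place 357 for GAPDH, below the typical gene. With the same sum outside KEF51, ATP5PD and ALDOA stayed among the 5 nearest to GAPDH, and MICOS10 and ATP5PO among the 5 nearest to ENO3.

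Both genes belong to families with close relatives. GAPDH has many processed pseudogenes in rodent genomes, but the processing notes name the rabbit assembly OryCun2.0, whose copies were not examined. ENO3 shares much of its coding sequence with the other enolases. How the counting divided reads among such relatives is not given in the sources used here.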

How the data were processed

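RNA-seq of 9 CF libraries, 3 per group, was analysed. Groups came from the sample titles, and all 9 columns were matched to them. The authors deposited FPKM values, which are scaled by gene length and library size. Their processing notes name FastQC 0.11.9, Trimmomatic 0.39, HISAT2 2.2.1, featureCounts 2.0.1 and OryCun2.0. How FPKM were computed is not given in the sources used here. Relative depth was taken as the most frequent log2 ratio (bins of 0.02) among genes with FPKM between 0.02 and 0.3 in both libraries.

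Genes that reached FPKM 1 in 3 or more libraries were analysed with limma 3.58.1 (R 4.3.3) after adding a pseudocount of 1 and taking log2, using eBayes with a mean trend and 1 fit over all groups. Fold changes on this scale understate those of low genes. The fits were also run on simulated data that lacked the difference in composition between the groups. That check therefore cannot speak for calls made under this difference. Median-ratio scaling took each library's median ratio to the geometric mean over libraries, using genes above 0 in all of them. Members, lists and rules were chosen with earlier results of these data known. Named were both members, the listed genes of the glycolysis (except 1 that is counted but not reported here), reference and qRT-PCR lists, the 5 genes most like each member and marker genes. SLC2A1, SLC2A4, PYGM and HIF1A were named after their values were seen. Alternatives were other pseudocounts, filters and scalings, the compared groups alone, the replicate number as a block, no trend and each library left out.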

Additional observations from a re-analysis of the deposited data

How the results depend on the processing

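The ENO3 to GAPDH ratio kept its direction with pseudocounts of 0.1 and 0.01 and without each library, with log2 differences of 2.51 to 3.05 (AngII against blank), -1.16 to -0.62 (treated against AngII) and 1.68 to 2.05 (treated against blank). Without each library, GAPDH ranged over 0.79 to 1.74, 4.89 to 5.33 and 5.91 to 6.86. GAPDH was at 6.14 and 7.26 (treated against AngII and blank) with the same sum in each library, 2.09 and 2.83 with the same sum outside KEF51, -0.23 (a reversal) and 0.36 with median-ratio scaling, and 0.17, 0.55 and 0.72 in the 3 comparisons with quantile normalization. The 169 genes called between AngII and blank became 969 and 1190 with pseudocounts of 0.1 and 0.01, 79 with no filter, 342 at a mean FPKM of at least 5, 20 with the same sum in each library, 934 with median-ratio scaling, 1534 with quantile normalization, 850 with GAPDH and 3297 with ACTB scaling. With limma on the compared groups alone 0 were called (1663 at an unadjusted p below 0.05). Correlations of same-numbered deviations were all under 0.1, as were those between other numbers. Most tested genes were below FPKM 1 in blank and AngII, so this check cannot exclude that the numbers pair samples. The replicate block left 7. Without each library the count was 0 to 309: 0 without blank library 3 (993 at an unadjusted p below 0.05), 309 without blank 2, 29 without AngII 3, 2 without treated 1 or 2 and 18 without treated 3. The 10869 and 10845 genes called in the treated group against AngII and blank became 3113 and 3110 at a mean FPKM of at least 5, 6819 and 7024 with the same sum outside KEF51, 465 and 1067 with median-ratio scaling, 871 and 1967 with quantile normalization, 351 and 1028 with GAPDH scaling and 2253 and 451 with ACTB scaling, and ranged over 10852 to 10870 and 10807 to 10870 without each library. With no filter on low values these counts were 11248 and 11265 of 18281 tested genes. Of the 8 other glycolytic genes, 1 was called between AngII and blank with either smaller pseudocount, at a mean FPKM of at least 5 or with no trend, 2 with quantile normalization (both lower) and 5 with ACTB scaling (all higher), and none without any 1 library. Treated against AngII and blank, 5 and 5 were called at a mean FPKM of at least 5 (where only 5 were tested), 7 and 5 with the same sum outside KEF51, 0 and 2 with median-ratio scaling, 1 and 2 with quantile normalization, 1 and 1 with GAPDH and 2 (both lower) and 1 (higher) with ACTB scaling, and 8 and 8 without each library. Except where fewer genes were tested, the cause was not tested. The number of fragments is unknown, so no counting error is given.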
